A study of Mus musculus with 4 samples.

Results

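The genes described here are 44 DNA repair genes of the mouse, chosen by symbol from 50600 annotated genes: the Fanconi anaemia genes Fanca to Fancm, the breast cancer susceptibility genes Brca1 and Brca2 with their partner Palb2, symbols that begin with Rad5 and a digit from 0 to 4, Xrcc1 to Xrcc6, mismatch repair genes of the Msh, Mlh and Pms families, the helicase gene Blm, the nuclease gene Exo1 and the DNA ligase genes Lig1, Lig3 and Lig4. The rule that selects them reads gene symbols and no measured values. The cells were primary T cells of the inbred mouse strain C57BL/6NJ. Their RNA was sequenced in 4 libraries, numbered 1 to 4 as biological replicates of a single group, so no treated or control group was compared. The labels leave the culture condition out, and the alignments recorded in the file headers carry the words Th0, activated and 24 h in all 4. Age and sex are not given, the donor entry is the same in all 4 libraries, and whether the cells came from separate animals is not stated.

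DNA repair is divided by the lesion. The Fanconi pathway acts on crosslinks between the strands: a core complex adds ubiquitin to the FANCD2-FANCI pair, and nucleases and recombination then complete the repair. Homologous recombination repairs breaks through both strands by loading a recombinase on resected DNA and copying a sister chromatid, whereas end joining ligates broken ends that the Ku proteins hold. Mismatch repair removes replication errors, with MutS proteins recognising the mismatch and MutL proteins cutting near it. Activated T cells divide rapidly, and lymphocytes use end joining and mismatch repair also to rearrange or diversify antigen receptor genes in other stages or cell types.

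The cells carried T-cell transcripts and few of other lineages. All 7 T-cell markers examined (Trac, Cd4, Lck, Cd3d, Cd3e, Cd3g and Cd28) exceeded 10 TPM throughout. TPM is an abundance computed as fragments divided by exon length and scaled so that every library has the same total. Of 5 B-cell, 5 myeloid and 4 natural killer cell markers, none reached 1 TPM in all libraries. Their summed levels ran from 2.48 to 5.35 TPM for the B-cell list, from 0.355 to 1.16 for the myeloid list and from 0.298 to 0.903 for the natural killer list, with Csf1r, Klrb1c and Klre1 without a fragment. The dividing-cell markers Mcm5, Top2a, Mki67 and Ccnb1 were all above 10 TPM. Total gene-assigned fragments ran from 47558517 to 273136467, with replicate 2 being 5.74 times as deep as the shallowest library.

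Nearly all of the repair genes were transcribed. In all 4 libraries 41 of 44 were at 1 TPM or more, and 37 were at 10 or more. Over the 21764 protein-coding genes these shares were 46.4% and 35.6%. The genes as a group summed to 1961, 2078, 2005 and 2018 TPM in replicates 1 to 4 (mean 2015 ± 48.4, SD, n = 4). The 5 highest genes held 44.3% ± 0.451 (SD, n = 4) of that sum, with Lig1, Msh6 and Xrcc5 first. Among the 41 genes at 1 TPM or more, the highest mean level was 65.8 times the lowest, and of the 40 steps between neighbours in the order of levels 18 held in all libraries by more than their spread while 22 did not. Each step from Lig1 through Msh6 and Xrcc5 to Xrcc6 held, and none of the steps from Xrcc1 down to Rad54l2 did. In bulk RNA, a gene made at a low level in every cell and a gene made at a high level in some cells cannot be told apart.

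**Figure D1:**
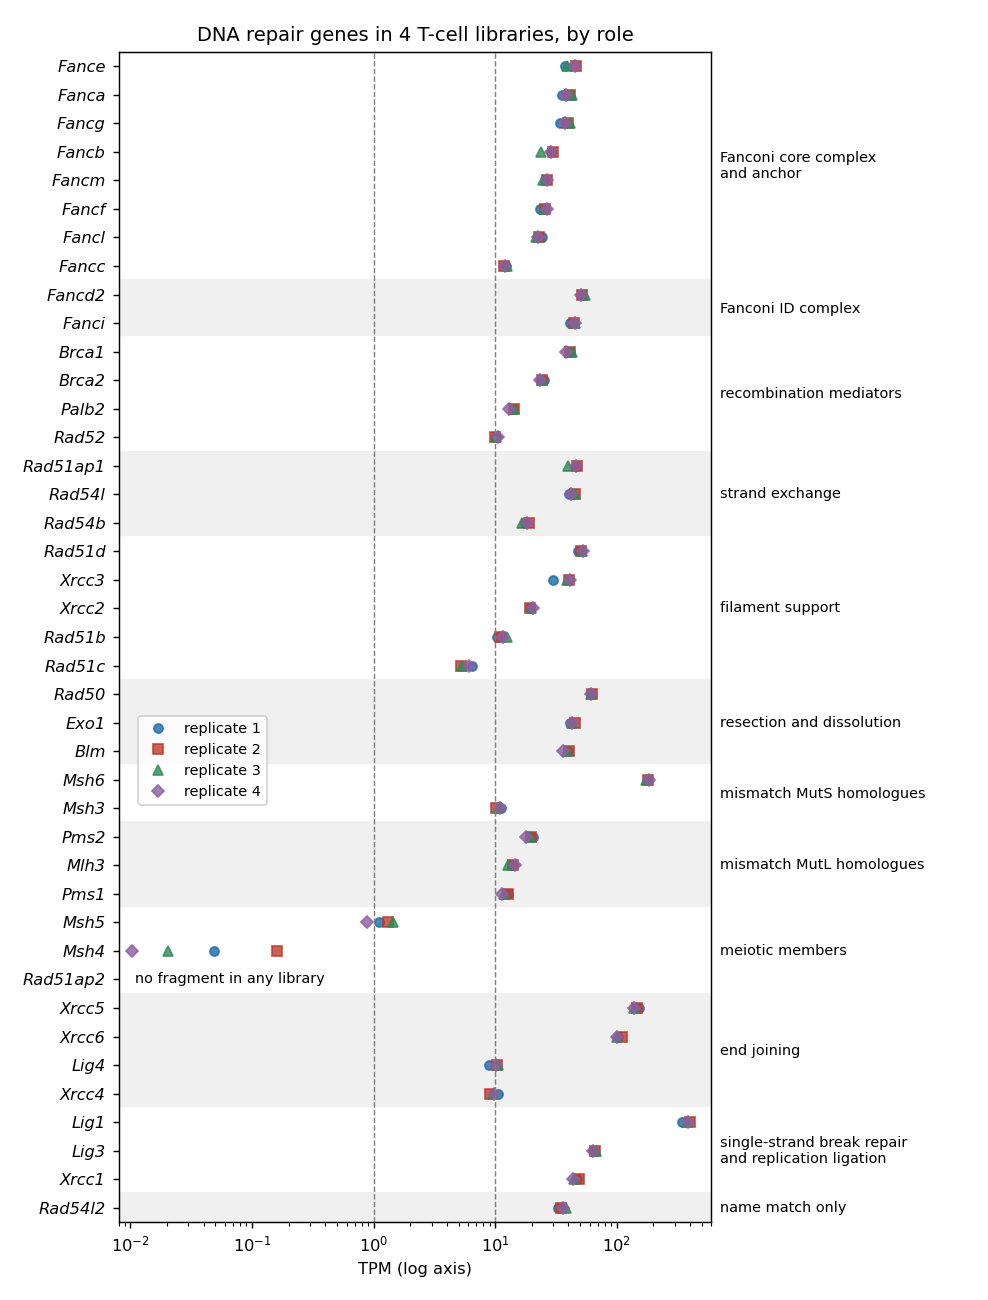
TPM (log axis) in each of the 4 libraries of the repair genes described, grouped by role, with dashed lines at 1 and 10 TPM. Lig1 lies highest at a mean of 379 TPM, most genes lie above 10 in every library, and the meiotic genes Msh5, Msh4 and Rad51ap2 lie lowest, the last with no fragment.

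Several of these genes start back to back with another protein-coding gene, and the sequence between the starts is printed for 4 such pairs as examples. The RNA levels of these and other such pairs are compared further on. The letters are those of the RefSeq promoter table (GRCm38.p6) on the strand of the repair gene, read 5′ to 3′ towards it. Capitals mark the letters CCAAT (the core of the box bound by NF-Y) and GGGCGG (the core of the GC box bound by SP1), in either orientation. The Pms1 stretch lies between Ormdl1 and Pms1 at chr1:53297019-53297094 (minus strand), that of Pms2 between Aimp2 and Pms2 at chr5:143909848-143909963 (plus strand), that of Palb2 between Dctn5 and Palb2 at chr7:122132986-122133040 (minus strand) and that of Brca1 between Nbr1 and Brca1 at chr11:101551956-101552148 (minus strand). No annotated exon of either gene of a pair lies in its stretch, and exons of other genes were not looked for.
Pms1: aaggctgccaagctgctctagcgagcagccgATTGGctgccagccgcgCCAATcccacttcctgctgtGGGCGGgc
Pms2: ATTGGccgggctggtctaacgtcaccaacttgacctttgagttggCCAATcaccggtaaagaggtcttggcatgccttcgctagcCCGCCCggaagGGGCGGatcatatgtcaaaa
Palb2: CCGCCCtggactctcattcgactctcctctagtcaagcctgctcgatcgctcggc
Brca1: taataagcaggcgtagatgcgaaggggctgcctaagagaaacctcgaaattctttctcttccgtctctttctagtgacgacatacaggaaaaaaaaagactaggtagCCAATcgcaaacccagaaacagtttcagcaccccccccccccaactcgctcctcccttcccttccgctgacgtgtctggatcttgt
Pms1 and Pms2 each hold 2 CCAAT matches and at least 1 GGGCGG match within these short stretches, Palb2 holds 1 GGGCGG match and no CCAAT, and Brca1 holds 1 CCAAT match and no GGGCGG. The promoter windows covered such a stretch for 8 pairs, the 4 printed among them. Of the 8, 5 held CCAAT and 6 held GGGCGG, and that between Abhd13 and Lig4 held neither. No share over other head-to-head pairs was computed.

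Among the genes of mismatch recognition, the alternative subunits of the MutS dimers differed widely. Msh6 (chromosome 17, 87975050 to 87990883, mm10), whose product recognises single mismatches, was at 179, 182, 175 and 186 TPM in replicates 1 to 4. Msh3, whose product recognises larger loops, was at 11.2, 10.2, 10.5 and 10.9 TPM, and the ranges of the 2 did not overlap. The Msh6 level was 16.9 ± 0.743 times that of Msh3 (SD, n = 4), and Msh6 made up 94.4% ± 0.230 of the summed level of both. On the scale of log2(TPM + 1) the difference was 3.96 ± 0.06. These are ratios of RNA levels, not of proteins. They also depend on annotated exon length, which is 11254 bases for Msh3 and 4254 for Msh6. In fragments over all libraries, without division by length, Msh6 had 96544 and Msh3 had 14716.

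The MutL genes Pms2, Mlh3 and Pms1 were closer together. Pms2, whose product carries the endonuclease of mismatch repair, was at 20.5, 19.7, 19.4 and 18.0 TPM. Mlh3, a gene with a major role in meiosis, was at 13.8, 13.99, 12.7 and 14.5 TPM, and Pms1 was at 12.8, 12.8, 11.9 and 11.5. Pms2 was the highest of the 3 in each library. It exceeded Mlh3 by 0.47 ± 0.12 and Pms1 by 0.62 ± 0.04 (log2 scale, SD, n = 4). Exo1, the nuclease that removes the mismatched strand and also resects breaks, was at 41.3, 45.1, 42.8 and 42.7 TPM, above all 3 in every library.

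The 3 ligase genes differed most of all. Lig1 (chromosome 7, 13277283 to 13311433, mm10), whose product joins Okazaki fragments in replication and seals nicks in long-patch repair, was at 347, 399, 381 and 389 TPM and was the highest repair gene in every library. It alone gave 18.8% ± 0.739 of the summed level of all 44 genes. Lig3, the ligase of single-strand break repair and of mitochondria, was at 63.6, 65.9, 67.1 and 64.3 TPM. Lig4, the ligase of end joining, was at 8.96, 10.3, 10.6 and 10.2 TPM. Of the summed ligase level Lig1 took 83.4% ± 0.623, Lig3 14.4% ± 0.623 and Lig4 2.20% ± 0.0732 (SD, n = 4). Lig1 was above Lig3 by 2.52 ± 0.07 and above Lig4 by 5.11 ± 0.04 on the log2 scale. Xrcc1, the scaffold that binds LIG3, was at 47.2, 48.6, 44.7 and 43.9 TPM, below Lig3 in all libraries.

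Within end joining, the genes for end binding were far above those for ligation. Xrcc5, which encodes Ku80, was at 152, 148, 138 and 138 TPM, and Xrcc6, which encodes Ku70, was at 103, 111, 99.98 and 101. Xrcc6 was lower than Xrcc5 by a log2 difference of -0.47 ± 0.06. The ligation genes Lig4 and Xrcc4, whose products form a stable complex, were about level with each other, with Xrcc4 at 10.6, 9.01, 9.68 and 9.85 TPM. Lig4 was below Xrcc4 in replicate 1 and above it in the other 3, and the mean difference of 0.03 ± 0.17 was smaller than its spread (exact sign-flip permutation test, two-sided, p = 0.75). The sign of that mean turned to -0.0187 without replicate 2.

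The mediators of homologous recombination were at graded levels. Brca1, a ubiquitin ligase subunit that promotes resection and recruits PALB2, was at 41.1, 41.0, 42.7 and 38.2 TPM. Brca2, which loads the recombinase on DNA, was at 25.1, 24.4, 24.3 and 23.5 TPM. Palb2, which bridges BRCA1 and BRCA2, was at 14.1, 14.3, 14.2 and 12.9 TPM. The order Brca1, Brca2, Palb2 was the same in every library: Brca1 exceeded Brca2 by 0.72 ± 0.05, and Brca2 exceeded Palb2 by 0.77 ± 0.04 (log2 scale, SD, n = 4). Rad52, an annealing factor, was lower than Palb2 in each library at 10.2, 9.89, 10.1 and 10.5 TPM.

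Among genes that assist strand exchange, Rad51ap1 and Rad54l were above Rad54b in every library. Rad51ap1, a stimulator of strand invasion, was at 46.0, 46.7, 39.8 and 46.4 TPM, with replicate 3 lowest. Rad54l, the RAD54 motor protein of strand exchange, was at 40.6, 45.5, 45.6 and 42.2 TPM. Its homologue Rad54b was at 17.5, 19.0, 16.6 and 18.1 TPM, 1.24 ± 0.11 lower on the log2 scale. Rad54b shares 2068 of its 5782 exon bases with Fsbp on the same strand, and fragments in shared exons are assigned to neither gene. Scaled by its 3714 unshared bases, Rad54b would stand at 27.7 ± 1.55 TPM and the difference from Rad54l would fall to 0.63 ± 0.11, with the same sign. Rad54l2, which matches by symbol but whose product is known mainly as a partner of steroid receptors and of other DNA-bound proteins, was at 32.8, 34.6, 38.6 and 36.2 TPM.

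The genes Rad51b, Rad51c, Rad51d, Xrcc2 and Xrcc3, whose products support the recombinase filament, were not transcribed at equal levels. Rad51d was at 47.9, 50.7, 51.9 and 52.7 TPM, and its partner Xrcc2 was at 19.2, 19.5, 19.8 and 20.3. Rad51d stayed 1.32 ± 0.03 above Xrcc2, and the libraries stood in the same order for both genes. Xrcc3 (chromosome 12, 111803192 to 111813873, mm10) was at 29.9, 40.2, 39.1 and 41.0 TPM, and its partner Rad51c was at 6.4, 5.22, 5.31 and 6.11, the lowest gene of the group in every library. Replicate 1 was thus lowest for Xrcc3 and highest for Rad51c. Their difference was 2.06 in replicate 1 and between 2.56 and 2.73 in the others, the widest spread of the 20 pairs (mean 2.50 ± 0.30). Rad51b was at 10.4, 11.0, 12.4 and 11.6 TPM.

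Resection and dissolution genes were at intermediate levels. Rad50, of the MRE11 complex that senses and trims ends, was at 61.5, 62.6, 61.6 and 61.6 TPM and had the lowest coefficient of variation of the tested repair genes, 0.793%. Blm, the helicase mutated in Bloom syndrome, was at 39.5, 40.2, 39.2 and 36.1 TPM, below Rad50 and near Exo1.

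All 8 genes of the Fanconi core complex and its anchor were at 10 TPM or more, and the pair that the complex modifies had higher means. Fancd2 was at 50.5, 52.0, 54.5 and 51.1 TPM and Fanci at 41.3, 44.8, 45.3 and 45.7. Fanci was lower in each library, by a log2 difference of -0.23 ± 0.06. In the core, Fance had the highest mean, at 37.5, 45.9, 39.3 and 45.1 TPM, with replicates 1 and 3 below the other 2. Fanca was at 35.2, 41.4, 42.9 and 38.6 TPM, and Fancg, its binding partner, was at 34.2, 39.4, 41.4 and 37.3. Fanca and Fancg moved together from library to library: Fanca stayed above Fancg by 0.05 ± 0.01, the smallest spread of all pairs. Their transcript GC contents were also close (53.0% and 53.3%), and the source of the shared movement was not tested. Fancb was at 27.8 ± 2.54, the DNA translocase Fancm at 26.0 ± 0.814, Fancf at 25.3 ± 1.43 and the E3 ligase subunit Fancl at 22.9 ± 1.19 TPM (SD, n = 4). Fancc was the lowest of the core at 12.2, 11.8, 12.6 and 12.1 TPM, without overlap with any other core gene.

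The 3 genes grouped by role as meiotic, Msh5, Msh4 and Rad51ap2, formed the bottom of the set. Not every gene with a role in meiosis was low: Mlh3 was at 12.7 to 14.5 TPM. Msh5, which with MSH4 stabilises meiotic crossover intermediates, was at 1.11, 1.32, 1.45 and 0.877 TPM from 109, 578, 113 and 68 fragments. Msh4 had 6, 88, 2 and 1 fragments, a level of at most 0.161 TPM. Rad51ap2 had no fragment in any library, and the 3 fragments taken as detection floor would correspond to between 0.0119 and 0.0674 TPM for its exon length. Of 9 germ-cell markers, 1 (Stag3, mean 2.73 TPM) reached 1 TPM in all libraries, and Sycp1 and Mael had no fragment.

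Across the 20 pairs of partners, paralogues and alternative partners, 19 kept their sign in all 4 libraries. For each of the 19 the exact sign-flip permutation test gave p = 0.13, the smallest that 4 libraries allow, and 0.132 after Benjamini-Hochberg adjustment over the 20 pairs, so that none could pass 0.05. The statement for these pairs is therefore one of size against spread: the exception was Lig4 against Xrcc4.

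**Figure D2:**
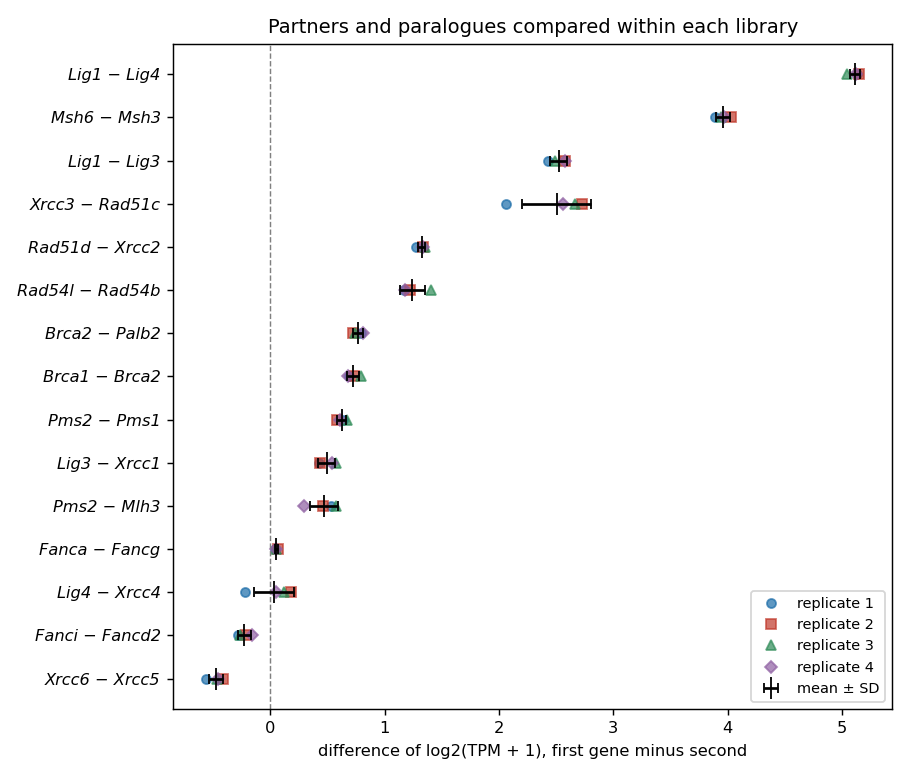
Difference of log2(TPM + 1) between the genes of each pair described, first gene minus second, in each library (symbols) with mean and SD (bars); the dashed line is no difference. Lig1 against Lig4 is widest at 5.11, Lig4 against Xrcc4 straddles the line, and Xrcc3 against Rad51c has the widest spread, with replicate 1 at 2.06.

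Few genes were called as varying between the replicates, among the repair genes as over all genes. Of the 42 with enough fragments for the test, which leaves out Msh4 and Rad51ap2, 0 varied beyond the spread fitted over all genes at an adjusted p under 0.05 (edgeR residual deviance, Benjamini-Hochberg adjustment over 12712 genes). Over all 12712 genes the share called was 0.362%, and 0 of 42 is near that share. At an unadjusted p under 0.05, 1 of the 42 repair genes was past the threshold against 5.54% of all genes. The fit with DESeq2 dispersions also gave 0 and 1. That gene was Xrcc3, whose adjusted p by edgeR was 0.685, so it is not called; that value lay between 0.600 and 1.00 over the alternatives. After Xrcc3 the largest deviances belonged to Fance, Fanca, Rad51ap1 and Rad54l2. The median coefficient of variation was 4.80% over the tested repair genes and 7.53% over all tested genes, whose median level was lower, at 23.0 against 36.5 TPM. Among genes at 10 TPM or more it was 4.71% and 5.66%.

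Where the repair genes did deviate, replicate 1 deviated with base composition. Replicate 1 was the lowest library for 18 of the 42 tested repair genes, against 5, 9 and 10 for replicates 2, 3 and 4. Of the 14 genes with the highest transcript GC content (49.97% to 60.4%) 9 were lowest in replicate 1, and of the 14 with the lowest (40.9% to 45.6%) 2 were. Among the former were Xrcc3, Fanca, Fancg, Lig1, Fance, Fancf and Rad51d, and among the latter Rad51c, Xrcc4 and Fancl were highest there. These counts were made for the repair genes only. With no share over all tested genes beside them, they show no trait particular to repair genes. Across the 42 genes, the deviation in replicate 1 had a Pearson's r of -0.624 and a Spearman's rho of -0.611 with GC content, and across 12692 tested genes these were -0.270 and -0.369. These are descriptions across genes of 1 library, which share its depth and preparation. In replicate 1, Xrcc3 (-0.309, log2 scale) and Rad51c (0.135) deviated in the directions of this trend. Other genes of like GC content went against it: Xrcc1 (57.6%) was at 0.034 and Lig4 (43.1%) at -0.142. Whether base composition gave rise to the Xrcc3 value was not tested. With the trends on GC content and length removed, the deviance of Xrcc3 went from 9.45 to 7.43, that of Xrcc1 from 1.39 to 5.64, and the median over the tested repair genes from 1.39 to 1.49. The median over all tested genes went from 1.98 to 1.91. Past an unadjusted p under 0.05 by edgeR were 0 of the 42 repair genes and 698 of 12712 genes, against 1 and 704 with the trends left in.

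**Figure D3:**
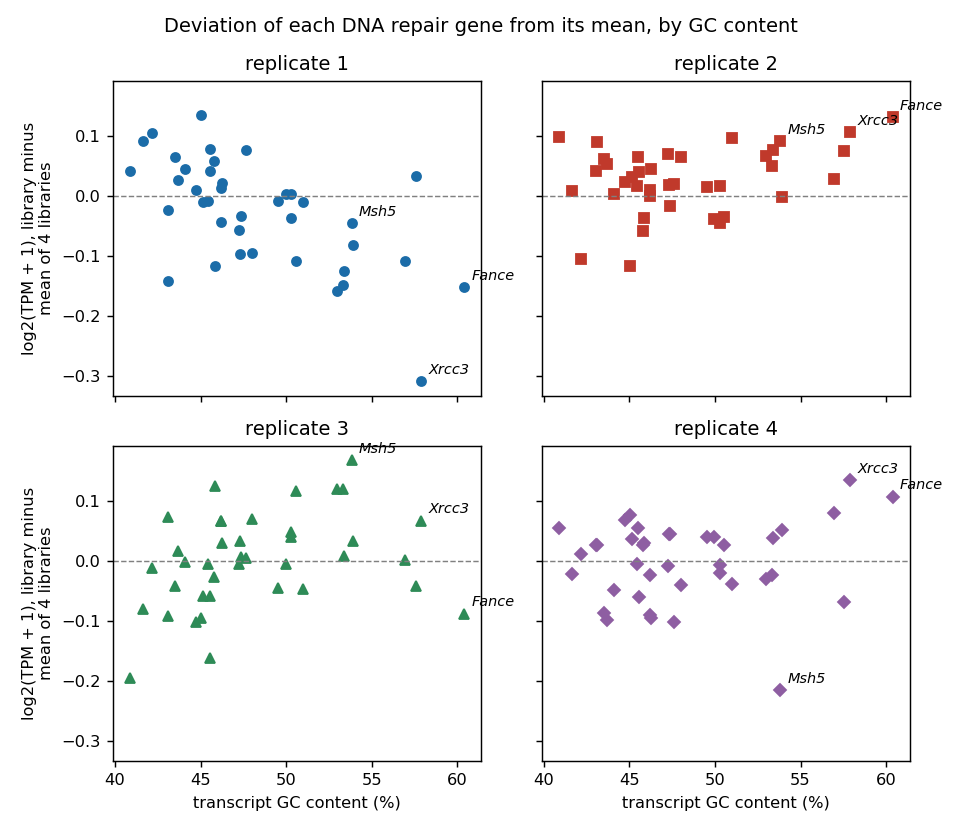
Deviation of the tested repair genes described from their means over the 4 libraries, in log2(TPM + 1), against transcript GC content, 1 panel per library. In replicate 1 the points fall from left to right, with Xrcc3 lowest at -0.31. In the other 3 libraries the correlation over all tested repair genes is weaker and opposite in sign (Pearson's r 0.345, 0.338 and 0.156 in replicates 2 to 4). As deviations are taken from the mean of the 4 libraries, a fall in replicate 1 is balanced by a rise across the others.

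The start sites held a feature the choice by name did not use. Of the 44 repair genes, 15 (34.1%) have a protein-coding neighbour on the other strand whose annotated start lies within 1000 bases, head to head, with an overlap under 300 bases. The share was 8.62% over all protein-coding genes and 16.1% over those at 10 TPM or more, compared with 13 of 37 (35.1%) for the repair genes at that level. RNA of the neighbour was at 10 TPM or more in all libraries for 11 of the 15. Over all 1875 protein-coding genes that start head to head with another, 1250 were at that level, a similar share. It was above the repair gene in all libraries for 6 neighbours, among them Aimp2, Emc3, Dctn5, Abhd13 and Ormdl1, and below it in all libraries for 9.

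Shared starts did not go with equal levels. Aimp2, a scaffold of the aminoacyl-tRNA synthetase complex, begins 117 bases from Pms2 and was at 215, 213, 213 and 217 TPM, against 18.0 to 20.5 for Pms2. Dctn5, a dynactin subunit, begins 56 bases from Palb2 and was at 80.7, 77.2, 74.3 and 79.4 TPM, against 12.9 to 14.3. Ormdl1, a regulator of sphingolipid synthesis, begins 77 bases from Pms1 and was at 19.1, 16.4, 13.7 and 15.1 TPM, the closest to its repair gene of those named above. In the other direction, Nbr1, an autophagy receptor gene 194 bases from Brca1, was at 31.1, 30.0, 30.2 and 29.6 TPM, below Brca1. Pomgnt1, 150 bases from Rad54l, was at 33.6 ± 1.98 TPM, below Rad54l as well. Emc3 (78.3 ± 5.42 TPM) lay above Fancd2, and Abhd13 (30.6 ± 1.60) above Lig4. Zfyve21 was at 17.8, 12.96, 12.3 and 13.8 TPM, highest in replicate 1, where its neighbour Xrcc3 was lowest. The largest ratios of a repair gene to its neighbour were at Tex14, a germ-cell gene at 0.0979 ± 0.0713 TPM beside Rad51c, and at Pinlyp, which had no fragment beside Xrcc1 at 46.1 ± 2.17. D6Wsu163e, Gas2 and Mospd2, beside Rad51ap1, Fancf and Fancb, were at means of 10.3, 8.12 and 4.30 TPM.

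**Figure D4:**
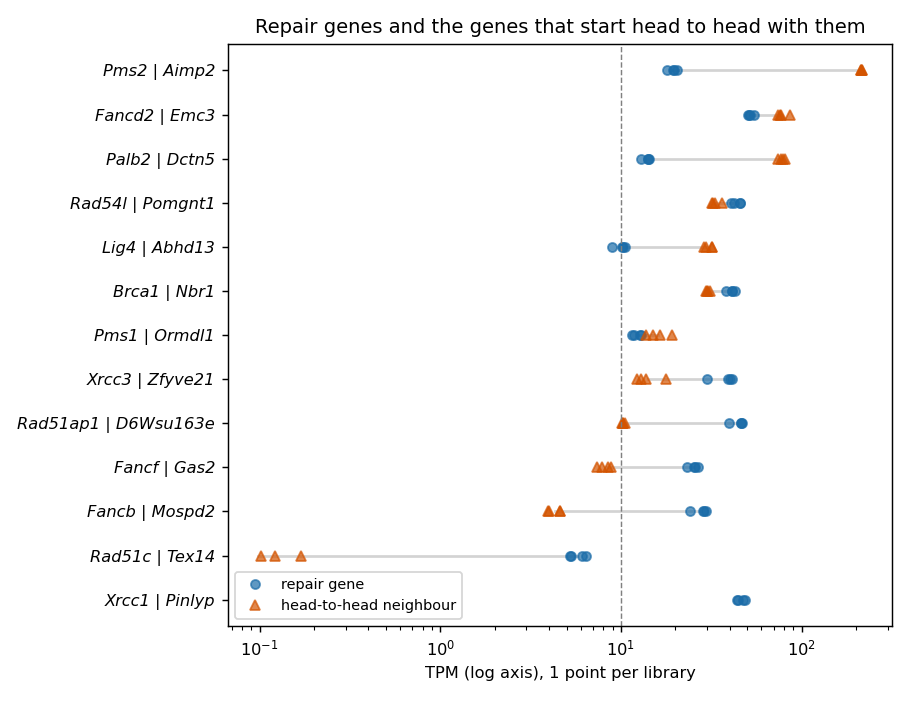
TPM (log axis) of repair genes (circles) and of the protein-coding gene that starts head to head with each (triangles), 1 point per library, with a dashed line at 10 TPM. Aimp2 lies far to the right of Pms2 and Tex14 far to the left of Rad51c; libraries in which a gene had no fragment (Pinlyp in all, Tex14 in replicate 4) have no triangle.

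Letters known from cell-cycle and housekeeping promoters were counted in RefSeq windows from 250 bases before to 50 after each start, on both strands; 34 of the 44 genes matched the table, with 41 windows. TTTCGCGC was in 3 of 34 (Lig1, Msh3 and Rad51c), 8.82%, against 0.374% of 27025 genes and 0.934% of those at 10 TPM or more. CCAAT was in 21 (61.8%) against 41.1% and 43.2%. GGGCGG was in 23 (67.6%), above the 38.2% of all genes and below the 72.6% of genes at 10 TPM or more. The matches in Lig1 and Rad51c lay after the RefSeq start. Their windows (chromosome 7, 13278576 to 13278875, and chromosome 11, 87404457 to 87404756) do not hold the starts annotated for the counts. Those are at 13277283 for Lig1 and 87404954 for Rad51c, and such starts were used for the head-to-head distances. TTTGGCGC was in Msh3 only (2.94%, against 0.585% of all genes and 1.35% of those at 10 TPM or more). It lay at -202 to -195 from the start and overlapped the TTTCGCGC match of Msh3 at -198 to -191, so both fall in a single stretch. TGACGTCA, the cyclic AMP response element, was in Brca2 and Rad51c (5.88% against 2.03% and 3.99%). CCGGAAGT, an ETS site, was in Lig4 and Palb2 (5.88% against 4.31% and 11.9%). TTTGAA, a form of the cell-cycle homology region, was in Msh4 and Rad51b (5.88% against 20.2% and 14.1%), and TTCGAA, another form, was in 0 of 34 (against 1.80% and 2.75%). A match is a run of letters and not a measured binding site.

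The rest of each pathway was transcribed as well. Of 129 further repair genes in 7 lists, 126 were at 1 TPM or more and 117 at 10 or more in all libraries, with a median of 41.6 TPM, and 1 of 128 tested was called as varying. All 19 other Fanconi genes were at 1 TPM or more, from the deubiquitinase gene Usp1 (223 ± 22.5 TPM) and Cenpx (172 ± 9.18) down to Ube2t (14.6 ± 1.11), which encodes the ubiquitin-conjugating enzyme for FANCD2, and the nuclease gene Fan1 (7.95 ± 0.360). Of 33 other recombination genes 32 were at 1 TPM or more, with Rpa1 (274 ± 6.58) and Sfr1 (201 ± 6.32) highest, Slx1b at 9.73 ± 0.450 and the meiotic recombinase Dmc1 lowest at 0.168 ± 0.0486. The 13 other genes listed for mismatch repair were all at 10 or more, from the clamp Pcna (859 ± 38.6) and Pold2 (360 ± 10.5) to Setd2 (38.7 ± 1.15) and Mcm9 (12.5 ± 0.430).

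All 12 other end-joining genes were at 1 TPM or more and 9 at 10 or more, with Tdp2 (84.4 ± 4.45) and Rif1 (82.2 ± 2.20) highest and Aplf (7.74 ± 0.115) and Dclre1c, the Artemis nuclease, lowest (4.45 ± 0.483). Of 20 base excision and single-strand break genes, Apex1 (391.8 ± 18.3) and Fen1 (347 ± 8.78) were highest, Smug1 was at 10.6 ± 1.56 and Neil2 lowest at 0.955 ± 0.631. Of 15 nucleotide excision genes, all at 1 TPM or more, Ddb1 (719 ± 33.3) was highest and Xpa (11.3 ± 1.16) and Uvssa (6.00 ± 0.395) lowest. Among 19 damage checkpoint genes the highest were H2afx and Tipin (305 ± 23.1) and the lowest Rnf8 (8.75 ± 1.42) and Atrip (0.512 ± 0.0818). H2afx, the histone variant phosphorylated at breaks, was at 394, 290, 332 and 271 TPM, highest in replicate 1, and was the gene called (edgeR adjusted p = 0.00346).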

How the data were processed

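The deposited counts were made with featureCounts 1.4.6-p4, which, per the file headers, assigned paired fragments to GENCODE vM13 exons with strand setting 2, without fragments that aligned to several places or to several genes, and per the labels the genome build is mm10. The assay is titled total RNA-seq while the linked protocol is named for poly(A)+ RNA. The aligner settings are not given in the sources used here. TPM was computed here from counts and exon lengths. The length of a gene covers all its annotated exons, used in these cells or not, so every ratio between genes depends on it. Symbols came from GENCODE vM21 (50376 of 50600 identifiers matched). Variation was tested with edgeR 4.0.16 (R 4.3.3): filterByExpr at 10 counts, TMM factors (0.998 to 1.002), trended dispersion, and residual deviance against a chi-square with 3 degrees of freedom, checked on simulated counts. DESeq2 1.42.0 was an alternative. Pairs were compared within libraries on log2(TPM + 1). Python 3.11.15 with pandas 2.3.3 and scipy 1.17.1 was used. As no label states separate animals, p-values reflect only how these samples differ among themselves, and that may be technical. Every pair of libraries differed by more than sampling noise (chi-square over its degrees of freedom 9.94 to 36.9), and floors and intervals cover counting error only. Repair genes are named with their levels, per library for pairs, role extremes and the 5 largest deviances, and of each further list the 2 highest and 2 lowest genes and any called. Some genes that this rule would name are not reported here, though counts over all 44 genes, 20 pairs and the lists include them. The genes and lists were chosen with earlier results of these data known. Head-to-head neighbours, GC content and the exon overlap of Rad54b were examined after the values were seen.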

Additional observations from a re-analysis of the deposited data

Results flagged for a closer look

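Of 67 sets of 4 values, 3 had 1 library that stood apart from the other 3 by a Dixon ratio above its 95% critical value, and chance gives about 1 in 20 sets. Rad51ap1 was at 39.8 TPM in replicate 3 against 46.0 to 46.7 in the others. Palb2 was at 12.9 TPM in replicate 4 against 14.1 to 14.3. Rad50 was at 62.6 TPM in replicate 2 against 61.5 to 61.6, a small gap that stands out because the other 3 libraries nearly coincide. None of the 3 genes was called as varying by edgeR.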

How the results depend on the processing

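The count of repair genes that varied between replicates was 0 under all 11 alternatives (other size factors, dispersions and filters, replicate 2 thinned, GC content and length trends removed, and each replicate left out). Over all genes, a common dispersion called 862 of 12712. The other alternatives called from 25 of 12690 (without replicate 2) to 56 of 12712 (DESeq2 dispersions). Apart from the common dispersion, so few genes were called that a count of 0 among the repair genes says little. Under the common dispersion 0 of 42 repair genes stood against 862 of 12712. The repair genes also had the higher median level (36.5 against 23.0 TPM), and whether that accounts for the difference was not tested. With FPKM on TMM-scaled totals, 20 rather than 37 genes were at 10 or more in all libraries. These values were 0.291 to 0.293 of TPM in these data for each repair gene with a fragment, so the lower count reflects a change of scale. With mitochondrially encoded and predicted genes left out of the total, levels were 1.04 times as high and 38 genes were at 10 or more. The mean log2 difference of Lig4 minus Xrcc4 ran from -0.0187 to 0.113 when each replicate was left out, and was negative without replicate 2 alone. The other 19 pairs kept their sign under every alternative; the Rad54b length, chosen after seeing the data, moved the difference from Rad54l to 0.63. No paired analysis was possible because there is 1 group. Depth limits only the meiotic genes: Msh4 and Rad51ap2 were below the counts the test needs.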

Other observations

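The few fragments of Msh4 lay mostly in the deepest library. The 88 fragments in replicate 2 correspond to 0.161 TPM, with an exact 95% Poisson interval of 0.129 to 0.199, while replicate 1 was at 0.0490 (0.0180 to 0.107) from 6 fragments, replicate 3 at 0.0205 (0.00249 to 0.0741) from 2 and replicate 4 at 0.0103 (0.000262 to 0.0576) from 1. The interval of replicate 2 does not overlap with those of the other 3, but these intervals hold counting error only, and in the edgeR fit without a filter Msh4 was not called as varying between replicates (deviance 5.81, adjusted p = 1.00). Without replicate 2 the mean level would be 0.442 of that over all 4. Msh5 was highest in replicate 3 (1.45 TPM, 1.19 to 1.74) and lowest in replicate 4 (0.877, 0.681 to 1.11).

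Of the further repair genes, 2 others were past an unadjusted p under 0.05 by edgeR without being called. Gen1, which encodes a Holliday junction resolvase, was at 25.0, 20.7, 22.5 and 18.9 TPM (adjusted p = 0.816). Neil2, a DNA glycosylase gene, was at 0.613, 1.88, 0.806 and 0.517 TPM (adjusted p = 0.540), with replicate 2 highest as for Msh4.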
